A study of Drosophila melanogaster with 69 samples.

Results

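This account describes 642 regions of the chromosome arms that carried an H3K9me3 peak in control Drosophila melanogaster embryos at the end of embryogenesis (stage 17) but had none at cycle 14, and that had no H3K9me3 peak at stage 17 in embryos whose mothers were depleted of the H3K9 histone methyltransferases (HMTs) or in either rescue. Starting from the 6148 control peaks of stage 17, 2401 had their midpoint on the arms used here (2L below 22 Mb, 3L below 23 Mb, 3R from 4.5 Mb and X below 22 Mb), and 2042 of these shared at least 1 bp with a peak of a second control experiment. Of those, 1234 had no control peak at cycle 14 and are called late peaks. The cycle 14 list came from other experiments than both control lists of stage 17, so stage cannot be told apart from experiment here. The members are the 642 late peaks with no shared base in the triple mutant, zygotic rescue and maternal rescue lists of stage 17, so 26.7% of all control arm peaks met the rule. The members were thus chosen by the presence and absence of peaks in the control, mutant and rescue H3K9me3 lists, so the presence or absence of a member in them is a description and no finding.

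The profiles were made by CUT&Tag, in which an antibody directs a transposase to cut and tag the chromatin around its target, with antibodies against H3K9me3, H3K9me2, the heterochromatin protein HP1a and, as a loading control, histone H3. The series holds 69 samples of staged, pooled embryos, and each of the 22 lists of peaks was called on the pooled reads of a group, in most cases of 2 samples. The 2 H3 lists hold narrow peaks, with a fold at the summit. The other 20 hold broad peaks, with a fold averaged over the region, so the size of an H3 fold is not comparable with that of the other folds. The labels of 2 control samples of cycles 9 to 13 and of 2 TM samples from before cycle 9 name the list of another group, the H3 samples of TM embryos name the same cycle 14 H3 list as the control ones, and both H3 samples of stage 17 carry the same replicate number. Each list was used under the group in its own name, so which samples the early lists and the cycle 14 H3 list pool is uncertain. No value therefore has a replicate error, the intervals given are 95% Wilson intervals for counting error over peaks, and neighbouring peaks are not independent of each other. Control embryos carried the label T180. Triple mutant (TM) embryos were labelled NI762xNI746 and came from mothers homozygous for a knockout of Su(var)3-9 that expressed short hairpin RNAs against dSetDB1 and G9a under a maternal tubulin Gal4 driver on the second chromosome. Their fathers also lacked Su(var)3-9, whereas the hairpins act in the female germline, so a TM embryo of stage 17 may have made dSetDB1 and G9a from its own genome. Zygotic rescue embryos (NI762xNI746xNI677) were laid by TM females mated to males with a hairpin-resistant dSetDB1 transgene and wild type for Su(var)3-9. The dSetDB1 maternal rescue (NI842xNI746) had a single hairpin-resistant endogenous copy of dSetDB1 in the TM background, and it was collected in another experiment than the control, TM and zygotic rescue.

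H3K9me2 and H3K9me3 mark heterochromatin, where HP1a binds the methylated histone tail and genes and transposons are kept silent. In Drosophila the enzymes that place the marks are Su(var)3-9, which acts mainly around the centromeres, dSetDB1 (gene egg), which acts with small RNA pathways and on many sites of the arms, and G9a. Most H3K9me3 lies around the centromeres and on chromosome 4, and the arms carry it in scattered islands that are often transposons.

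The sequences at the centre of 5 members are shown because they represent the kinds of site that the members include. They are taken from RefSeq Release 6, on the plus strand, 5′ to 3′, and each is 300 bases long. The first is the strongest member, between a pair of leucine tRNA genes inside an intron of Sarm (chr3L:8065717-8066016). Capitals mark the 32 bases of both tRNA genes.
Sarm member: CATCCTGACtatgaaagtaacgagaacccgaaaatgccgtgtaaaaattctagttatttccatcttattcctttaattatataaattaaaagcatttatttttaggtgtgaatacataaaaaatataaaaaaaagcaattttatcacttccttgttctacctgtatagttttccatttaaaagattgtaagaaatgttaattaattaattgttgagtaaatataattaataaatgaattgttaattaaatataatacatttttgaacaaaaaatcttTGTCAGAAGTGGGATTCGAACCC
The second is the next strongest, in an intron of cpo (chr3R:17932658-17932957). Capitals mark its single match to GAGAG or its reverse complement.
cpo member: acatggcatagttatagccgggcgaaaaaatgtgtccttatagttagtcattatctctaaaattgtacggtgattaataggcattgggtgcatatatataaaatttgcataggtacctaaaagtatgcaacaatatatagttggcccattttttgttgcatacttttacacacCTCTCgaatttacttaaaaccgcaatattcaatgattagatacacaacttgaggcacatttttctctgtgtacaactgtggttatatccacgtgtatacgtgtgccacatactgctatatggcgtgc
The third lies in Zasp66, a gene of the muscle Z-disc, where a coding exon meets an intron (chr3L:8637554-8637853). Capitals mark the 45 bases of coding exon.
Zasp66 member: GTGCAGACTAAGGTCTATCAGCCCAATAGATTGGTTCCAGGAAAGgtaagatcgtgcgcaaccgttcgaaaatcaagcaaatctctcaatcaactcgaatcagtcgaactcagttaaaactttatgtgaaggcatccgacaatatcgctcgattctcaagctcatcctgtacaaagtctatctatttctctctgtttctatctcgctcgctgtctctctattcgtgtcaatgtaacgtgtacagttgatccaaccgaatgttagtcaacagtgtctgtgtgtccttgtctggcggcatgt
The last pair comes from Ank2, the gene with the most members, at chr3L:7676644-7676943 and chr3L:7686128-7686427. All 300 bases of both windows are annotated as coding exon, and capitals mark the longest run they share, 102 bases.
Ank2 member A: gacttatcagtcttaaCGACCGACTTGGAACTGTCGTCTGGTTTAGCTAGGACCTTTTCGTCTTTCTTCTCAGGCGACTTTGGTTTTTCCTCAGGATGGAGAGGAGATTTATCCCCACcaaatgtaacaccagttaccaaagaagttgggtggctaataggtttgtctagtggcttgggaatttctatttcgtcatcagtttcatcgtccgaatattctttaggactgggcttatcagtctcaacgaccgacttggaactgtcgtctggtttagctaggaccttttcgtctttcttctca
Ank2 member B: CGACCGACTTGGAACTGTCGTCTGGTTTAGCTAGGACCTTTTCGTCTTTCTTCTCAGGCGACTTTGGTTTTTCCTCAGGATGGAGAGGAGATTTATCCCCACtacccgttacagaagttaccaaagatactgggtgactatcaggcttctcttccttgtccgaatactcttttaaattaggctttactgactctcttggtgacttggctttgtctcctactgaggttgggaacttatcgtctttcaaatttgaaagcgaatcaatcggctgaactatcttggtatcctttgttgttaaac

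The members were narrower and had a lower −log10 q than late peaks found again in the TM list and than arm peaks in general. A narrow or weak peak more easily lacks a shared base in the excluded lists. The rule itself can thus give this difference, which is a description and no finding. The members' fold over the background in the first control list ran from 1.52 to 4.02 with a median of 2.12. The authors' −log10 q (the false discovery rate of the peak) ran from 1.06 to 12.72 with a median of 2.14. The 454 late peaks found again in the TM list had a median fold of 2.29, a median −log10 q of 3.20 and a median width of 937 bp, against 644.5 bp for the members. All control arm peaks had a median fold of 2.13, a median −log10 q of 2.64 and a median width of 756 bp, so in fold the members were at the middle of the arm peaks. In the second control experiment the members had a median fold of 2.32, and 467 of 642 were higher there than in the first. The ranks of the folds in both experiments were related (Spearman's rho of 0.51 over 642 members that share the rule and the caller). A median of 96.8% of a member's bases was covered again in the second experiment.

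**Figure D1:**
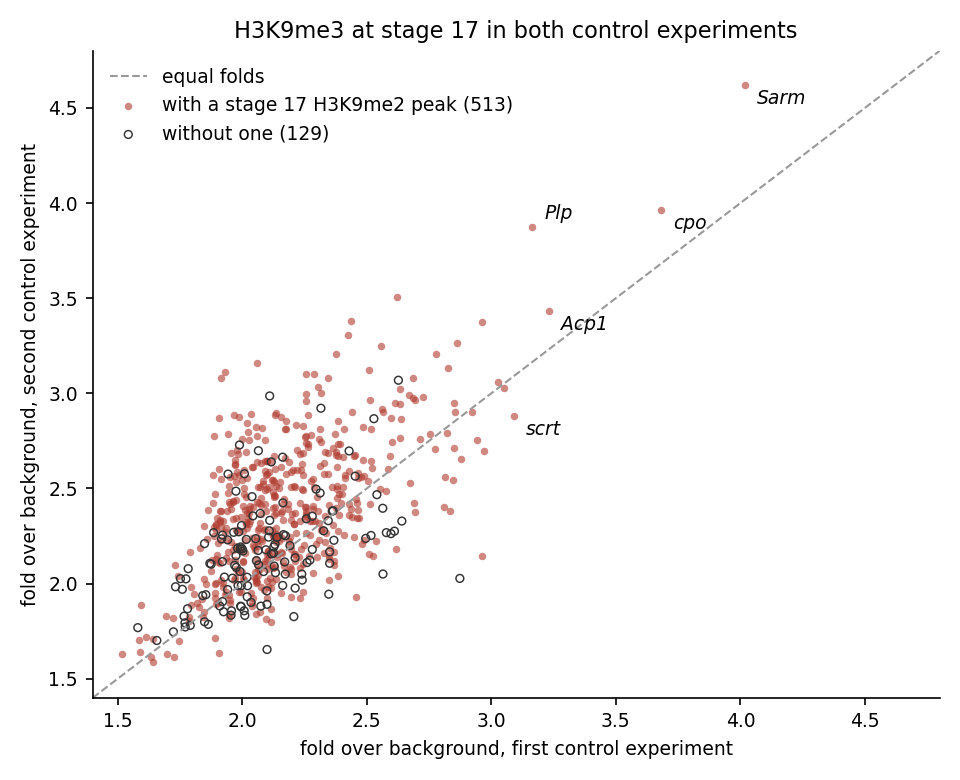
Each point is a member, with its fold over background in the first control experiment on the x axis and in the second on the y axis; filled points (513) have an H3K9me2 peak of stage 17 and open points (129) have none, and the dashed line marks equal folds. The member in Sarm lies apart at 4.02 and 4.62, whereas most members lie near 2 in both experiments.

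The strongest member was the one in the Sarm intron at chr3L:8065399-8066335. Sarm encodes a Toll-receptor-like adaptor needed for the degeneration of cut axons. The peak was 937 bp wide, with a fold of 4.02 (−log10 q 12.72) in the first experiment and 4.62 (19.18) in the second. It also had an H3K9me2 peak of stage 17 (fold 2.78), HP1a peaks of cycle 14 in control (3.08) and TM embryos (2.96), an H3K9me2 peak in TM embryos of cycle 14 (2.73) and an H3 peak of cycle 14 (2.95). In all, 6 members lay over tRNA genes, compared with 1 late peak found again in the TM list and 8 of all 2401 control arm peaks.

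The next member lay in an intron of cpo, couch potato, a neuronal RNA-binding protein (chr3R:17932368-17933248), with folds of 3.68 and 3.96 in the control experiments, 2.81 for H3K9me2 and 2.29 for H3 at stage 17. In Acp1, an adult cuticle protein gene, the member at chr2L:7740777-7741766 covered the start of the gene and its coding exons, with folds of 3.23 and 3.43. Of the 31-base words of this member, 61.6% occur more than once in the assembled arms and chromosome 4. Its reads could thus be placed on another copy, and its values are uncertain. In Plp, which encodes a centrosomal pericentrin-like protein, a coding exon held the member at chr3L:15069960-15070531, with folds of 3.16 and 3.87, an H3K9me2 fold of 3.39 and H3 peaks at stage 17 (3.33) and at cycle 14 (2.39). Of these first 4 members, Sarm, cpo and Plp therefore overlapped an H3 peak and Acp1 overlapped none.

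The other members among the 10 of highest fold had folds between 2.96 and 3.09 in the first experiment. They lay in the 3′ UTR of scrt, a zinc finger transcription factor of neurons (chr3L:3989356-3990476, 2.88 in the second experiment), in an intron of Zasp66 (chr3L:8637188-8638220, 3.03) and at the start of Clk, the circadian transcription factor (chr3L:7775354-7776073, 3.06). Further ones were in the 3′ UTR of Rbp6, an RNA-binding protein of the Musashi family (chr3L:17060602-17061597, 2.70), between genes 4218 bp from nompC, a mechanosensory channel gene (chr2L:5369979-5370671, 3.38), and in a coding exon of Rift (chr3R:31807129-31808323, 2.14). All 10 had an H3K9me2 peak at stage 17, with folds from 1.75 in Rift to 3.39 in Plp. The H3K9me2 and H3 lists of stage 17 were made in the second experiment. By the lower fold of both experiments, the first 5 members were those in Sarm, cpo, Acp1, Plp and Zasp66.

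Wide members were few and not strong. The 5 widest measured 2350 to 3073 bp, with folds in the first experiment of 1.84 to 2.46. The widest covered the cathepsin gene CtsL3 and CR1075 (chr3R:6026478-6029550, 2.39), and the next ones covered CG31875 and SoYb, a Tudor-domain gene of the piRNA pathway (chr2L:9996292-9998789, 2.46), an intron of Appl, the fly homologue of the amyloid precursor protein (chrX:531561-534004, 1.84), kumpel (chr3R:25917618-25920011, 2.13) and CG7227 (chr2L:7994253-7996602, 2.12). All 5 had an H3K9me2 peak at stage 17, and the first 2 also an H3 peak of that stage.

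At stage 17 most members carried both methylation states. An H3K9me2 peak overlapped 513 of 642 members (79.9%, interval 76.6 to 82.8), compared with 356 of 454 late peaks found again in the TM list (78.4%, 74.4 to 82.0) and 73.2% of all control arm peaks. The intervals of the members and the regained peaks overlap. The fold of H3K9me2 at these members had a median of 2.06 and reached 3.45. The share depends on the threshold of the H3K9me2 list, since 46.6% of the members overlapped an H3K9me2 peak with a −log10 q of at least 2.

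In the lists of earlier stages H3K9me2 was found at fewer members. These lists came from other experiments than the stage 17 list, so stage and experiment cannot be told apart. At cycle 14, 147 members (22.9%, 19.8 to 26.3) had a control H3K9me2 peak, against 29.5% (25.5 to 33.9) of the regained peaks and 46.4% of all control arm peaks. All but 11 of these 147 also had the mark at stage 17, whereas 377 members had H3K9me2 at stage 17 and not at cycle 14, and 118 had it at neither stage. At cycles 9 to 13, 42 members (6.542%) had H3K9me2, against 6.83% of the regained peaks and 26.5% of all control arm peaks. Before cycle 9 it was 2 members (0.312%), against 1.32% of the regained peaks and 12.4% of all control arm peaks. In TM embryos of cycle 14, 26 members (4.05%, 2.78 to 5.87) had an H3K9me2 peak. This was so for 7.05% (5.04 to 9.78) of the regained peaks, whose interval overlaps that of the members, and for 30.4% of all control arm peaks. None of the 642 members overlapped an H3K9me3 peak in the control lists before cycle 9 or at cycles 9 to 13, nor in the 3 early TM lists. This was shared by nearly all of the 1234 late peaks, of which 1 was in the control list of cycles 9 to 13, 4 in the TM list of cycle 14 and 0 in the other early lists. Of all control arm peaks, 10.6% were in the control list of cycles 9 to 13, 2.25% in that from before cycle 9 and 5.66% in the TM list of cycle 14. These early lists were shorter (36 to 886 peaks) and were not used by the rule.

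HP1a, profiled at cycle 14, lay at few members, and at more of them in TM than in control embryos. In control embryos of cycle 14, 56 members (8.72%, 6.78 to 11.2) overlapped an HP1a peak, compared with 19.8% (16.4 to 23.7) of the regained peaks and 36.5% of all control arm peaks. In TM embryos of the same stage it was 106 members (16.5%, 13.8 to 19.6), 30.4% (26.3 to 34.8) of the regained peaks and 39.3% of all control arm peaks. At 50 members HP1a was in both lists, at 56 it was in the TM list alone and at 6 in the control list alone. This split was not counted for the other sets. The higher share in TM than in control embryos was not particular to the members, since the regained peaks had it too. The intervals of the members, which take peaks as independent, do not overlap those of the regained peaks in either genotype. However, the regained peaks were wider (median 937 bp against 644.5 bp) and had a higher −log10 q (median 3.20 against 2.14). A wider peak shares 1 bp with another peak more easily. What part width and strength have in these shares was not tested. The TM list of HP1a holds 6285 peaks and the control list 4721, at similar estimated background levels of 4.88 and 4.77. Start sites of genes held 36 of the 106 members with HP1a in TM embryos, and 119 of all 642 members. HP1a was not profiled at stage 17, so its presence at the members once H3K9me3 had formed is not known from these lists.

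Peaks of H3, the loading control, lay at 93 members at stage 17 (14.5%, 11.97 to 17.4), against 7.93% (5.78 to 10.8) of the regained peaks and 17.3% of all control arm peaks. The intervals of the members and the regained peaks do not overlap, but they take peaks as independent, which neighbouring peaks are not. An H3 peak of stage 17 lay on 29.4% of the members of mostly repeated sequence and on 13.2% of the others. It lay on 6 of the 7 members in Ank2 and on 3 of the 5 in Muc14A. With the stricter overlap given in the last section the members' share was 7.48%, and no such share was counted for the regained peaks. Whether both sets differ in H3 was thus not tested. At cycle 14 they lay at 48 members (7.48%, 5.69 to 9.77), against 7.27% of the regained peaks and 15.9% of all control arm peaks. Counting either stage, 120 members overlapped an H3 peak. What part H3 has in the H3K9me3 peak of these members was not tested. Among the H3K9me2, HP1a and H3 lists, H3K9me2 of stage 17 held the sole peak at 233 members (36.3%, 32.7 to 40.1), against 30.2% (26.1 to 34.6) of the regained peaks and 19.2% of all control arm peaks. No peak of these lists lay at 103 members (16.04%), 14.3% of the regained peaks and 14.5% of all control arm peaks.

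**Figure D2:**
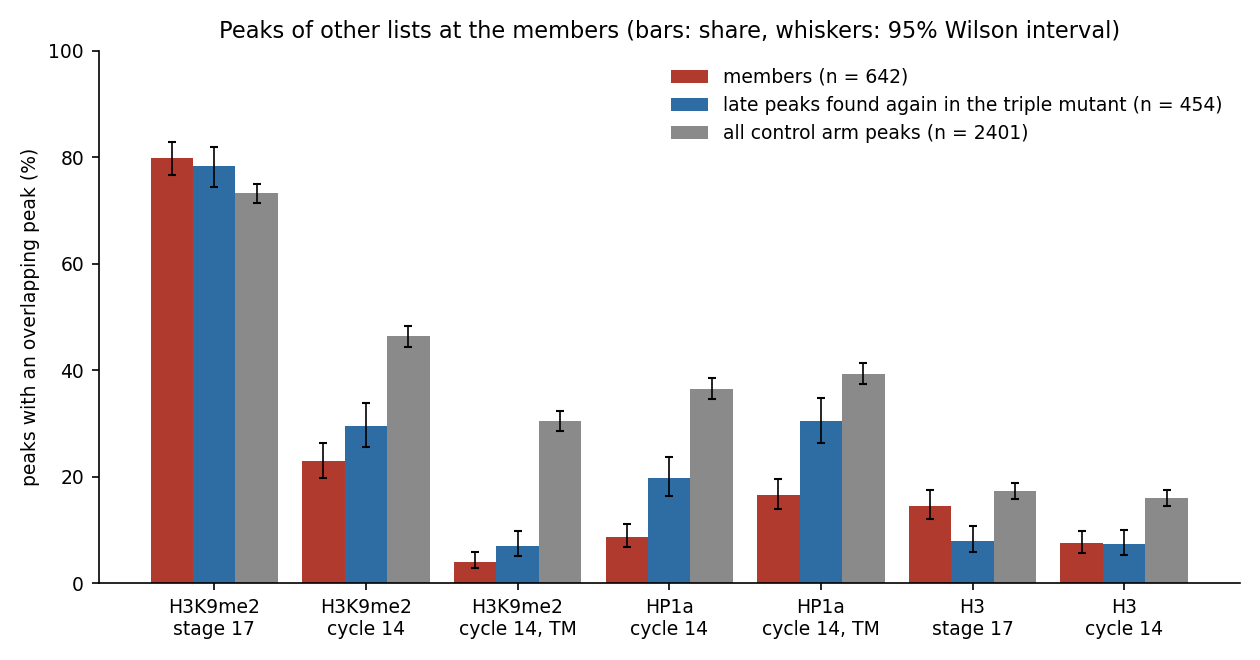
Bars give the share of peaks, in percent on the y axis, that share at least 1 bp with a peak of each list named on the x axis (TM, triple mutant), for the members, the late peaks found again in the triple mutant and all control arm peaks; whiskers are 95% Wilson intervals. The members have H3K9me2 at stage 17 about as often as the regained peaks (79.9% and 78.4%) and HP1a in 8.72% and 19.8% in control embryos.

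Most members lay in genes, and a larger share of them than of the compared peaks met coding sequence. The midpoint was inside a protein-coding gene for 472 members (73.5%, 70.0 to 76.8), against 66.5% (62.1 to 70.7) of the regained peaks and 63.8% of all control arm peaks. A coding exon shared bases with 316 members (49.2%, 45.4 to 53.1), against 33.3% (29.1 to 37.7) of the regained peaks and 27.5% of all control arm peaks. By midpoint the shares in a coding exon were 34.6%, 19.2% and 17.3%. These, and not the shares with any shared base, are to be set beside the 18.8% of the bases of these arms that are coding exon. The share of the arms inside genes was not counted. By midpoint, 222 members were in a coding exon, 187 in an intron of a protein-coding gene, 157 between genes, 34 in a 3′ UTR, 26 in a 5′ UTR, 13 in an exon of a non-coding transcript and 3 in an intron of another gene. A start site of a protein-coding gene, with 250 bp on each side, touched 119 members (18.5%, 15.7 to 21.7), against 31.5% (27.4 to 35.9) of the regained peaks and 14.9% of all control arm peaks. The regained peaks were wider than the members, and the part of width in this share was not tested.

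Fewer members than regained peaks met transposons and other repeats. An annotated transposable element overlapped 44 members (6.85%, 5.14 to 9.08), against 102 regained peaks (22.5%, 18.9 to 26.5) and 41.1% of all control arm peaks. INE-1 was met by 8 members, the retrotransposon Rt1c by 7, and 1360 and roo by 5 each. Repeat-masked bases were 12.8% of the 497096 bases of the members, 24.0% of those of the regained peaks, 35.8% over all control arm peaks and 17.4% of the arms as a whole. Annotated elements covered 4.41% of the members' bases and 3.97% of those of the arms, and 31-base words found more than once in the assembled arms and chromosome 4 made up a mean of 8.29% of a member and 5.25% of the positions of the arms. Next to the arms as a whole, the members thus held less repeat-masked sequence but not less of these other kinds. The members were richer in G and C (45.9%) than the regained peaks (42.8%) and the arms (42.4%).

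**Figure D3:**
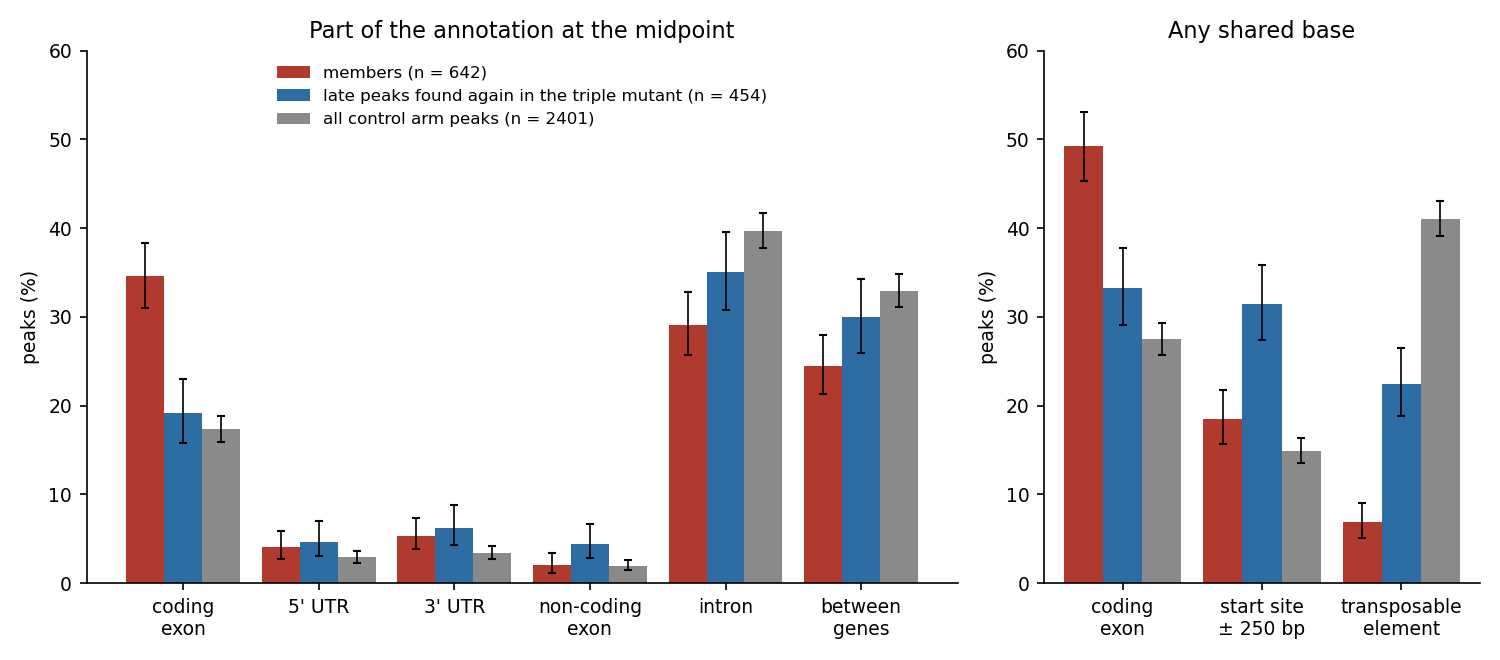
The left panel gives the share of peaks, in percent, whose midpoint lies in each part of the annotation, and the right panel the share that shares any base with a coding exon, a start site or a transposable element; whiskers are 95% Wilson intervals. Members stand above the other sets for coding exons (34.6% by midpoint) and below them for transposable elements (6.85%).

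The arms differed in their number of members. There were 151 on 2L (6.86 per Mb), 182 on 3L (7.91 per Mb), 171 on 3R (6.20 per Mb) and 138 on X (6.27 per Mb). The X had 175 regained peaks (7.95 per Mb) against 78 to 101 on each of the other arms (3.55 to 4.35 per Mb). Members were thus 38.8% of the late peaks of the X, compared with 54.8% on 3R, 58.7% on 3L and 59.0% on 2L.

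Most members stood alone. Of the 642, 413 had no other member within 10 kb, and 229 (35.7%) were in 101 runs joined by gaps of at most 10 kb. These were 82 pairs, 15 runs of 3 and 4 runs of 5, and the 4 longest runs, which tie for the first places, are described next.

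The first run and the gene with the most members coincide. Ank2, a long ankyrin of axons that stabilises synapses, spans 63007 bp (chr3L:7655389-7718395) and held 7 members, all with their midpoint in its coding exons. The same bases also lie within the overlapping gene CG32373 (7 members) and, for 6 of them, within CG44195. Their folds in the first experiment were between 1.64 and 2.10. All 7 had an H3K9me2 peak and 6 an H3 peak at stage 17. The run of 5 at chr3L:7676440-7691428 lies in a stretch of internally repeated coding sequence, to which the pair of Ank2 sequences printed above belongs. Of the 31-base words of member A, 100% occur more than once in the assembled arms, and all of these have another copy within 50 kb. Over the 5 members of the run the share of repeated words was 49.3 to 100%, so the values of single members are uncertain.

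Repeated coding sequence recurred in Muc14A, a mucin gene of 52609 bp (chrX:16009114-16061722) with 5 members, all in coding exons. Their folds were 2.51, 2.10, 1.82, 2.11 and 1.80 in the first experiment and 2.42, 1.82, 1.90, 1.80 and 1.89 in the second. Repeated 31-base words make up 95.5 to 100% of each of them, so reads could be placed on other copies and the values of single members are uncertain. Each of the 5 had an H3K9me2 peak at stage 17 and an H3 peak at cycle 14, with H3 folds at cycle 14 between 2.55 and 3.49, and 3 had an H3 peak at stage 17.

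A pair of the runs of 5 lies on X at chrX:20164217-20188966 and chrX:20208835-20227667, in the array of Sdic genes, tandem copies of a gene for a sperm dynein intermediate chain. All 10 members there consist mostly of repeated 31-base words, so reads could be placed on any of several near-identical copies and the values of single members are uncertain. Their folds in the first experiment were between 1.74 and 2.85. The strongest, at chrX:20218804-20219930, had an H3 peak of stage 17 with a fold of 4.33. An H3K9me2 peak lay on 6 of the 10 and an H3 peak on 3. The first run begins in Phf7, a chromatin reader gene whose male form dSetDB1 is known to silence in female germ cells, with folds of 2.04 and 2.89 and H3K9me2 at 2.22.

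The remaining run of 5, at chr3R:29252810-29274675, is of single-copy sequence around stg (string), which encodes the Cdc25 phosphatase that drives embryonic cells into mitosis. A member lay over coding sequence of stg (folds 2.12 and 2.01), another over its start (1.85 and 1.85) and the others upstream of it between genes (2.31, 2.27 and 2.12 in the first experiment). Of the 5, 4 had an H3K9me2 peak, 2 had an HP1a peak in TM embryos (2.56 and 3.13) and none overlapped an H3 peak. The member with an HP1a fold of 3.13 in TM embryos also had an HP1a peak in control embryos (3.12).

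Over all members, 51 consisted for more than 50% of repeated 31-base words and 526 held no such word. These 51 included 22 with an annotated transposable element, and for 37 most repeated words had a copy within 50 kb. An H3 peak of stage 17 lay on 15 of the 51 (29.4%) and on 78 of the other 591 (13.2%), and one of cycle 14 on 18 (35.3%) and on 30 (5.08%). H3K9me2 at stage 17 was found on 36 (70.6%) and on 477 (80.7%). Besides Ank2, Muc14A and Sdic, these 51 included 2 members in lncRNA:Hsromega, a heat shock RNA with an internal tandem array, and 1 in dpy, a giant protein of the apical matrix. Among the regained peaks, 89 of 454 (19.6%) were of this kind, and among all control arm peaks 1077 of 2401 (44.9%).

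In all, 507 members overlapped 489 protein-coding genes, of which 419 held a single member and 6 held 4 or more. Besides the genes above these 6 included nAChRalpha6, a nicotinic acetylcholine receptor subunit (chr2L:9793317-9886250), with 4 members in its introns, and CG32816 (chrX:316576-470726), with 4, of which 3 also lie in CG3777. The nAChRalpha6 members had folds of 1.78 to 2.38 in the first experiment and 2.08 to 2.69 in the second. H3K9me2 peaks lay on 2 of them and H3 peaks on none.

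Among the gene lists, muscle genes were the ones most often near a member. Within 1 kb of a member were 7 of 17 muscle genes (41.2%), compared with 5.88% of all 10816 protein-coding genes of these arms, and 1 of 17 was near a regained peak. The muscle genes were longer (median 9.11 kb against 2.17 kb), and long genes meet more members, 14.6% of those of 10 to 50 kb and 40.6% of those over 50 kb. What part the length has in the count of muscle genes was not tested.

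The 7 muscle genes were of the thick filament, the thin filament and the Z-disc. Mhc, the muscle myosin heavy chain, held a member in an intron (folds 2.35 and 2.19 in the control experiments) and one in a coding exon (2.04 and 1.88). Mlc2, a myosin light chain, held one of 2.14 and 2.24, and Prm, paramyosin, one of 2.04 and 2.20. Tm1, a tropomyosin gene, held one of 2.02 and 2.34. The giant elastic protein gene sls held 3 members in coding exons, with folds of 2.19, 2.04 and 2.01 in the first experiment, and Msp300, which links muscle nuclei, held 1 in a coding exon (2.23). Zasp66 held a member in a coding exon (2.51 and 2.96) besides the strong one in its intron. Of the 11 members in these genes, H3K9me2 lay on all but 3 and H3 at stage 17 on 2, in sls and Msp300.

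Both neuronal lists were above the share of all genes, and below the 14.6% of all genes of 10 to 50 kb. Of 49 neuronal immunoglobulin genes 6 (12.2%) were near a member, namely DIP-zeta, DIP-alpha, Dscam4, dpr11, beat-Ib and beat-IIIc, and the strongest member was in DIP-zeta with folds of 2.92 and 2.90. Of 39 ion channel and transmitter receptor genes 5 (12.8%) were near one. They were nAChRalpha6, the serotonin receptor 5-HT7, the potassium channel Shal, the glutamate receptor Nmdar2 and Rdl, the GABA receptor, where a member had folds of 2.71 and 2.76. Regained peaks were near 1 and 3 genes of these lists. The median gene length was 32.8 kb in the immunoglobulin list and 24.2 kb in the channel and receptor list, and its part in these counts was not tested.

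The other lists were close to the share of all genes or below it, or were too short to say. Members were near 3 of 106 cuticle genes (2.83%), 5 of 153 chemoreceptor and odorant binding genes (3.27%) and 1 of 39 developmental regulators (2.56%), the Hox gene pb with folds of 1.97 and 2.27 in an intron. Of 14 piRNA and germline genes 3 were near one (21.4%), and the same number was near a regained peak. Besides Phf7 these were vas, the germline RNA helicase (folds 1.98 and 2.49 over a coding exon), and qin (2.69 and 3.08). Of 10 genes for H3K9 methylation and HP1 proteins, Su(var)3-9 alone was near a member, which lay 514 bp outside the gene (folds 2.00 and 2.76). Su(var)3-9 is the gene knocked out in the TM and rescue mothers, so at this site the absence of the peak cannot be told apart from a change of the local sequence in the mutant stock.

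**Figure D4:**
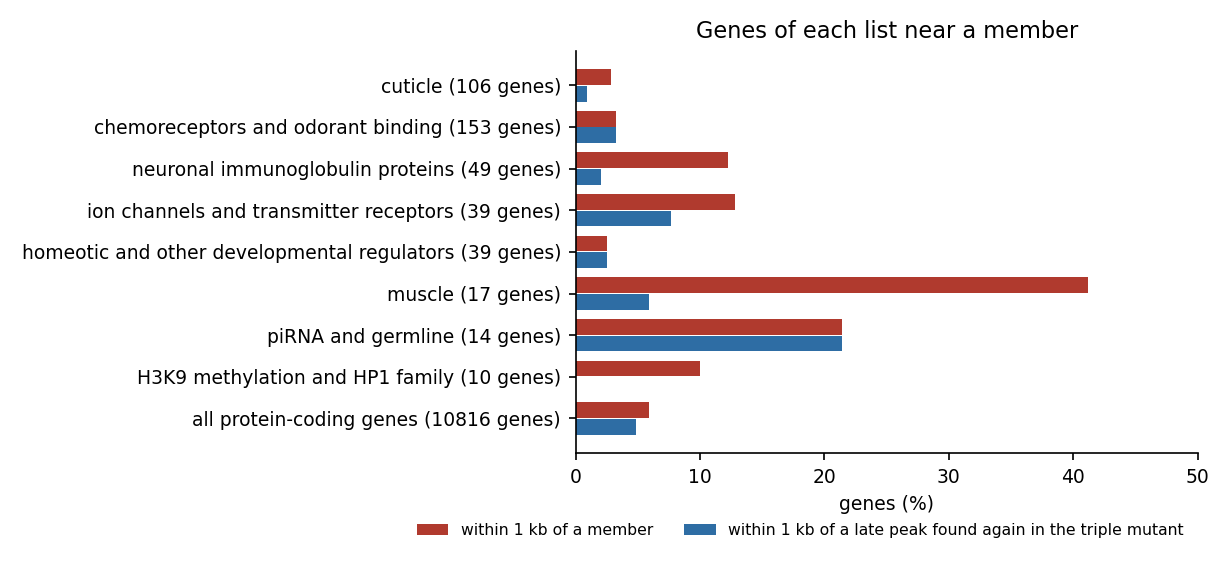
Horizontal bars give the share of the protein-coding genes of each list, in percent on the x axis, that lie within 1 kb of a member or of a late peak found again in the triple mutant; the number of genes on the arms used is given with each list. Muscle genes reach 41.2% for the members against 5.88% of all protein-coding genes.

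Short motifs were counted on both strands in the central 300 bases of each member, with the share of all 315236 tiles of 300 bases of these arms beside them. GAGAG, which GAGA factor binds, was in 292 members (45.5%), in 35.7% of the regained peaks and in 29.9% of the tiles. CAGGTAG, the Zelda motif, was in 16 members (2.49%), in 0.881% of the regained peaks and in 1.59% of the tiles. CGATA was in 35.0% of the members and 35.2% of the regained peaks, against 29.4% of the tiles, and GCCAT in 45.2%, 43.8% and 49.3%. Runs of CACACACA were in 8.10%, 9.91% and 6.66% and runs of AAAAAAAA in 9.03%, 11.5% and 16.03%. The members' windows also had a higher content of G and C (45.9%) than the regained windows (41.4%) and the tiles (42.4%), and its part in these shares was not tested. A match says that these letters are present and does not show that a factor was bound.

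At the edge of the rule, the member nearest to an excluded peak lay 66 bp from a TM peak (chr3R:16213575-16214496, fold 1.79). The next lay 176 bp from a control peak of cycle 14 (chr3L:16667396-16668526, 2.06) and 219 bp from a maternal rescue peak (chr3L:73595-74256, 1.85). Just outside were peaks that shared 17 bp with a TM peak (chrX:1736727-1737356, 1.72), 25 bp with a maternal rescue peak (chrX:16836230-16836548, 2.15) and 50 bp with a TM peak (chr3L:19477733-19478467, 1.92). The member nearest to an arm border had its midpoint 40713 bp from it, on 2L (chr2L:21958636-21959939, 2.39). An excluded peak was within 1 kb of 26 members and the median distance was 19475 bp.

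The mutant and rescue lists had lower estimated background levels than the first control list, and the cycle 14 list had a similar one. The lists give no read totals. Their background levels, estimated from the fold and p of each peak, were 8.83 in the first control list and 7.71 in the second. They were 4.81 in the TM, 6.39 in the zygotic rescue and 5.62 in the maternal rescue list. The control list of cycle 14, in which members also had to lack a peak, had a level of 8.89. Scaling to it changes the values by a factor of 1.007 only. That all 642 members then reached its threshold was thus fixed in advance, and it does not show that no peak was missed there. When the members' reads and background were scaled down to the TM level, 296 of 642 (46.1%) still reached the lowest −log10 p of the TM list, 2.48. The same held for 510 members (79.4%) at the level of the zygotic rescue and for 422 (65.7%) at that of the maternal rescue. All of the 296 also reached the threshold in both rescue lists, which was fixed in advance. Of these lists the TM list has the lowest background level and the highest threshold (2.48, against 2.41 in the zygotic and 2.43 in the maternal rescue). The scaling is a rough guide, since it treats the averages over a broad peak as values at a single position. Of the 454 late peaks that the TM list did hold, 324 (71.4%) reached its threshold in the same way. The other 346 members did not reach the TM threshold by this measure, and neither did 130 of the 454 late peaks that the TM list held. Reaching the threshold or not therefore does not settle whether a peak could be detected. For the members the lists cannot tell a lost mark from a peak that was missed.

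The share of late peaks that became members fell with the strength of the control peak. Of late peaks with a −log10 q from 1 to 1.5, 106 of 150 (70.7%) were members, of those from 2 to 3 it was 215 of 367 (58.6%), and of those of 8 and more it was 5 of 39 (12.8%). Arm peaks that were already present at cycle 14 had other shares at the same strength. These early peaks were chosen by their presence in a further list, that of cycle 14. All lists compared here were used by the rule, so the contrast is a description and no finding. From 2 to 3, 162 of 203 such early peaks (79.8%) were in the TM list and 164 (80.8%) in the zygotic rescue list, whereas of the late peaks 104 of 367 (28.3%) and 51 (13.9%) were. From 5 to 8 the TM list held 93.8% of 162 early and 68.2% of 107 late peaks. The early peaks were also wider (median 1155 bp over the 808 of them) and mostly of repeated sequence (83.4% with more than 50% repeated words), and the part of these differences was not tested. The zygotic rescue list held 271 late peaks, fewer than the TM list with 454 and the maternal rescue list with 474, and its background level was higher than both.

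**Figure D5:**
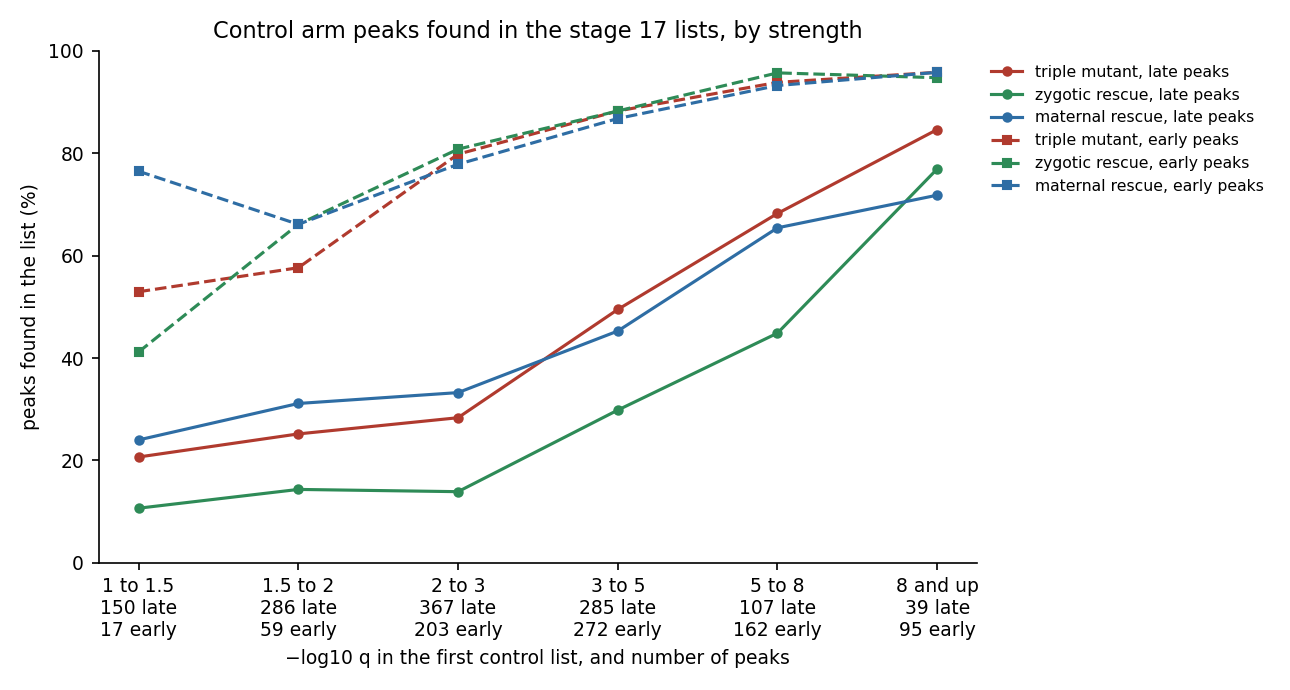
Lines give the share of control arm peaks found in each stage 17 list, in percent on the y axis, by the −log10 q of the peak in the first control list on the x axis, with the number of peaks under each step; solid lines are late peaks and dashed lines peaks already present at cycle 14. The solid lines lie below the dashed ones at each strength, with 28.3% against 79.8% in the triple mutant list between 2 and 3, and the early group from 1 to 1.5 holds 17 peaks. The peaks of the dashed lines were chosen by their presence in a further list, that of cycle 14.

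Among the 296 members that reached the TM threshold after scaling, most of these shares lay within the intervals given for all members. H3K9me2 at stage 17 lay on 82.8%, an H3 peak on 16.2% and an HP1a peak of control embryos on 8.78%, 70.9% were inside a protein-coding gene, 17.6% touched a start site and 13.1% of the bases were repeat-masked. H3K9me2 at cycle 14 was on 27.0% of them, and 24.7% were within 10 kb of another member.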

How the data were processed

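CUT&Tag libraries of H3K9me3, H3K9me2, HP1a and H3 were given as peak lists. By the methods and the submitters' processing notes, reads were trimmed, aligned to a joint dm6 and lambda genome with Bowtie2 at a low mapping-quality minimum and freed of duplicates, and the authors called peaks on them with MACS2. The deposited lists give a display score (not used), a fold ratio over the list's own background, and the −log10 p and −log10 q of each peak. They pool the samples of a group, carry no read totals and are not scaled by the 1 pg lambda spike-in, so amounts cannot be compared between lists. Peak names are numbered with gaps, by a filter that is not given in the sources used here.

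Overlap meant at least 1 shared bp. The reference was Release 6 (RefSeq sequence, Ensembl annotation 115); no peak lies beyond the end of an arm. Repeat-masked bases are lower-case bases of that sequence, and repeated words are 31-base words found more than once, on either strand, on the 5 arms and chromosome 4. Background levels are the 5th percentile of the backgrounds solved from fold and p in each list. The solver treats fold and p as values at a single position, and its test on simulated data was of such values. Those of a broad peak are averages over a region, which the test did not cover, so the levels and the scaling are rough estimates. No test between genotypes was made, since each group has 1 pooled list. Regions on 2R were not analysed here. Python 3.11.15, numpy 2.4.6, scipy 1.17.1 and matplotlib 3.10.9 were used.

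The members and the gene lists were chosen with earlier results of these data known. Named were the 10 members of highest fold, the 5 of highest lower fold of both experiments, the 5 widest, the runs with most members, genes with 4 or more members, and the regions nearest to the limits of the rule. Members in genes of the lists, tRNA genes and repeated sequence were named after their values were seen. Alternatives were 50% coverage by the second experiment, no excluded peak within 1 kb, a −log10 q of at least 2, the second experiment as source, scaling to the TM depth, stricter overlap and other annotation limits.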

Additional observations from a re-analysis of the deposited data

How the results depend on the processing

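No paired analysis was possible because each group has 1 pooled list and no test was made. Of 74 alternative values, 54 lay within the interval of the reported value, or within 1.5 times of the count, and 20 did not. Most alternatives use the same members or a part of them, so this count is no independent check. For the share of repeat-masked bases the interval was computed as if it were a count over 642 peaks. The number of members was 361 with a −log10 q of at least 2 and 296 after scaling to the TM depth, against 642. When an overlap had to cover at least 50% of the member, the shares were 69.5% for H3K9me2 at stage 17, 17.8% for H3K9me2 at cycle 14, 7.48% for H3, 5.92% for control HP1a and 12.1% for TM HP1a. With peaks of −log10 q of at least 2 in the other list, they were 46.6% for H3K9me2 at stage 17, 13.6% at cycle 14, 6.70% for control HP1a and 12.1% for TM HP1a. Among members with a −log10 q of at least 2, 13.6% had TM HP1a and 25.5% were within 10 kb of another member. That last share was 31.8% with 50% coverage by the second experiment, 24.7% after scaling to the TM depth (an alternative chosen after seeing the data, as was leaving out repeated sequence) and 61.1% at 50 kb. H3K9me2 at cycle 14 lay on 27.0% of the members after scaling. Start sites were on 22.4% with the second experiment as source and on 32.1% when extended by 1 kb, and annotated elements covered 4.41% of the bases. The cause was not tested. The mutant and rescue lists had lower estimated background levels than the control lists of stage 17, which limits the call of absence for weak members. The gain or loss of a mark at a single member cannot be read from these lists.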
